A study of Mus musculus with 12 samples.

Results

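The genes described here are 38 genes of autophagy and mitophagy in mouse erythroleukemia (MEL) cells. They were listed by symbol, with earlier results of these data known. A gene was read through its probe set annotated to 1 gene only, taking the one with the highest mean over the 6 arrays, and 36 of the 38 genes had such a probe set, out of 18193 genes with one on the array. Bnip3l was read only by probe sets shared with its pseudogene. Expression of Optn was not analysed here, and Optn enters only the promoter counts below. The 3 G9a knockdown arrays and the 3 wild type arrays came from MEL cells, a leukemia line of red cell precursors that dimethyl sulfoxide (DMSO) drives to mature. Cells were kept in 2% DMSO for 4 days, and doxycycline at 5 µg/ml switched on the knockdown, per the labels' protocols. Both groups carry the same protocol text, which leaves unsaid whether wild type cells also received doxycycline, what construct carried the knockdown, or how many clones or cultures the arrays represent. P-values therefore measure no more than spread between arrays, and that spread may be technical. In the main fit it is the spread left after the replicate number, moderated over all tested probe sets.

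Macroautophagy encloses cytoplasm in a double membrane, the autophagosome, and delivers it to the lysosome. The ULK kinase complex starts the process, a class III phosphatidylinositol 3-kinase (PI3K) complex marks the membrane with phosphatidylinositol 3-phosphate (PI3P), and ubiquitin-like conjugation systems attach ATG8 proteins (the LC3 and GABARAP families) to its lipid. In maturing mouse red cells the pathway removes mitochondria, with Bnip3l (NIX) as the receptor on the mitochondrial outer membrane. G9a, encoded by Ehmt2, methylates lysine 9 of histone H3, and in other mammalian cells its inhibition has been reported to raise the mRNA of Map1lc3b, Wipi1 and Trp53inp2. The title of the series concerns β-globin and not autophagy.

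The promoter windows of 4 members are shown here because the results below turn on these genes: Atg4c and Foxo3 had the members' largest differences between groups, and Lamp1 and Map1lc3b were both lowest in knockdown array 2 and highest in knockdown array 3. Each window runs from 250 bases before to 50 bases after the gene's start in RefSeq (GRCm38.p6), 5′ to 3′ along the gene's strand, and capitals mark CACGTG, the core E-box bound by TFEB and related factors.
Atg4c, chr4:99193684-99193983, plus strand: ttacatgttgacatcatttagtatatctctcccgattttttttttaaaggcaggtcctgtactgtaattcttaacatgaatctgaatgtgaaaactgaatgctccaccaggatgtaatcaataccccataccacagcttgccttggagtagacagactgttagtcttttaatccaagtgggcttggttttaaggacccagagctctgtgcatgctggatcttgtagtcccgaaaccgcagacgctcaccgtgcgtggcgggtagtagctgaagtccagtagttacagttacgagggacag
Foxo3, chr10:42276646-42276945, minus strand: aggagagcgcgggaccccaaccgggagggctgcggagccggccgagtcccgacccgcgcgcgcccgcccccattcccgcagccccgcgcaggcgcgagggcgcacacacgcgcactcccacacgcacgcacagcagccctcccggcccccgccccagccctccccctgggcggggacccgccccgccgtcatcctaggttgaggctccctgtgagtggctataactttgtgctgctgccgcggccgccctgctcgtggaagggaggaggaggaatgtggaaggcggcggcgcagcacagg
Lamp1, chr8:13158911-13159210, plus strand: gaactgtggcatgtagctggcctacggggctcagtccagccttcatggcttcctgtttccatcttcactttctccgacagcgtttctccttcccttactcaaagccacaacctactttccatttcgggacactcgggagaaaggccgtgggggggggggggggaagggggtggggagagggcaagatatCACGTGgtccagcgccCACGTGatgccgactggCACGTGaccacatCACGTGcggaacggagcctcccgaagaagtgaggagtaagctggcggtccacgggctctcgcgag
Map1lc3b, chr8:121590188-121590487, plus strand: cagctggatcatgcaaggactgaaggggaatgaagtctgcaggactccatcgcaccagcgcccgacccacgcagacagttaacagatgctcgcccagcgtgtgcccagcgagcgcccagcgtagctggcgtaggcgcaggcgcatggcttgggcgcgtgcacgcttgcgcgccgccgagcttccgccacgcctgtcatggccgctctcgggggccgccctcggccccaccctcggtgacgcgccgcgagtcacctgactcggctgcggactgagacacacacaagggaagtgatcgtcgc
The table lists a second start for Atg4c, and the first listed is shown for every gene. The Lamp1 window holds 4 copies of CACGTG, and the other 3 windows hold none. Of the 31 members with a window, 5 held CACGTG (Lamp1, Atg3, Atg5, Atg7 and Atg14), or 16.1%, against 7.24% of the first windows of 27025 genes, which include noncoding genes. GTAAACA, a forkhead motif of the kind bound by FOXO3, was in 0 of the 31 windows and in 3.55% of all windows. AGATAA, the motif read by the erythroid factor Gata1, was found for Atg4a and Atg4d and in 11.4% of all. Both strands were searched, and each motif was counted separately. The median window of the members held 19 CG dinucleotides, against 7 in all windows. CACGTG itself holds a CG, so its shares in members and in all genes come from windows of unlike CG content. The part of CG content in that difference was not tested. A match describes these letters only.

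The values below are GCRMA log2 values, and a difference is knockdown minus wild type from a limma fit over 17028 probe sets with the replicate number as a block. Ehmt2, the targeted gene, read 6.67, 7.33 and 7.58 in knockdown arrays 1 to 3, against 9.92, 10.03 and 10.23 in wild type arrays 1 to 3, at probe set 1460692_at. It fell by 2.87 (95% interval −3.24 to −2.49, limma adjusted p = 0.0316), and by 2.86 at 1426888_at (limma adjusted p = 0.0278). These were the only probe sets past the adjusted threshold of 0.05, 0.0117% of those tested, and neither passed without replicate 1 or replicate 2 (limma adjusted p = 0.277 and 0.142), nor did 1460692_at without replicate 3 (limma adjusted p = 0.0518). The erythroid identity of the cells was checked on 11 markers: 8 were tested, among them Gata1 at 13.40 ± 0.30 in the knockdown and 13.25 ± 0.16 in wild type (SD, n = 3 each), and Alas2 and Epor were above 12 in both groups on average. Of 7 myeloid markers only Spi1 and Csf1r passed the filter, and Mpo, Elane, Lyz2, Itgam and Ctsg averaged at most 2.74 in either group. Of megakaryocyte markers 2 of 6 were tested, of lymphoid markers 0 of 4, and of fibroblast and endothelial markers 1 of 5. Of the 13 tested cell type markers 4 (30.8%), Klf1, Spi1, Itga2b and Vim, had a difference whose 95% interval left out 0 (0.40, 0.42, −0.71 and −0.54, smallest limma adjusted p = 0.194), against 14.2% of all genes at an unadjusted p under 0.05. Spi1 differed by 0.20 without replicate 1. The part of these markers in the results below was not tested. Wild type array 1 was the highest of the 6 arrays for 31.2% of genes, and for 10 of the 36 members.

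All 36 measured members read above the filter at log2 4 on all 6 arrays, at the brightest probe set of each gene. The lowest single value was 4.60, for Atg10 in knockdown array 2. Of 18193 genes with a probe set of 1 gene, 9025 passed the filter, which asks for at least 3 arrays. The filter is not a call of expression. None of the 36 passed the limma test at an adjusted p of 0.05, where the background of 1 probe set per gene was 0.0111% of 9025 genes (smallest member adjusted p = 0.210). At an unadjusted p under 0.05 there were 4 members, Foxo3 and Wipi2 with a positive difference and Atg4c and Atg10 with a negative one. That is 11.1% of the members, against 14.2% of all genes (6.56% positive and 7.63% negative) and 13.7% of all probe sets. The share was thus no higher than the background, and the gap was not tested. With no replicate block there were 2, Atg4c and Wipi2, against 5.98% of all genes. Knockdown was above wild type in all 3 same-numbered pairs for 6 members, against 18.7% of all genes, and below it in all 3 pairs for 7, against 21.7%. Positive differences were found for 16 of 36 members, against 48.9% of all genes, and the members' median difference was −0.020, against −0.0063 over all genes. In bulk arrays, a change in the number of cells that express a gene and a change in RNA per cell cannot be told apart.

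The differences were small in size as well as uncalled. For 29 of the 36 members the difference was under 0.2 in size, and the median size was 0.11, against 0.13 over all genes. For 27 members (75.0%) the 95% interval lay within 0.5 of 0 in both directions, or 1.41-fold, against 66.0% of all genes. That bound is for the brightest GCRMA probe set and did not hold elsewhere for all 27. In MAS5 the interval reached 0.78 for Pik3r4, −0.71 for Tfeb, −0.66 for Wdr45, −0.54 for Atg9a and −0.52 for Atg13. In MAS5 it also ended just past −0.50 for Atg4b and Atg12. At other tested GCRMA probe sets it reached −0.70 for Ulk1, 0.56 for Nbr1 and 0.55 for Wipi1 and Atg4a. Those of Lamp2, Atg5 and Atg12 reached 0.54, −0.53 and −0.50. At the brightest GCRMA probe set, 9 members had an interval past that bound: Rb1cc1, Uvrag, Wipi2, Atg7, Atg10, Atg16l1, Atg4c, Sqstm1 and Foxo3. For these a larger change could not be seen or set aside at 3 arrays a group.

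**Figure D1:**
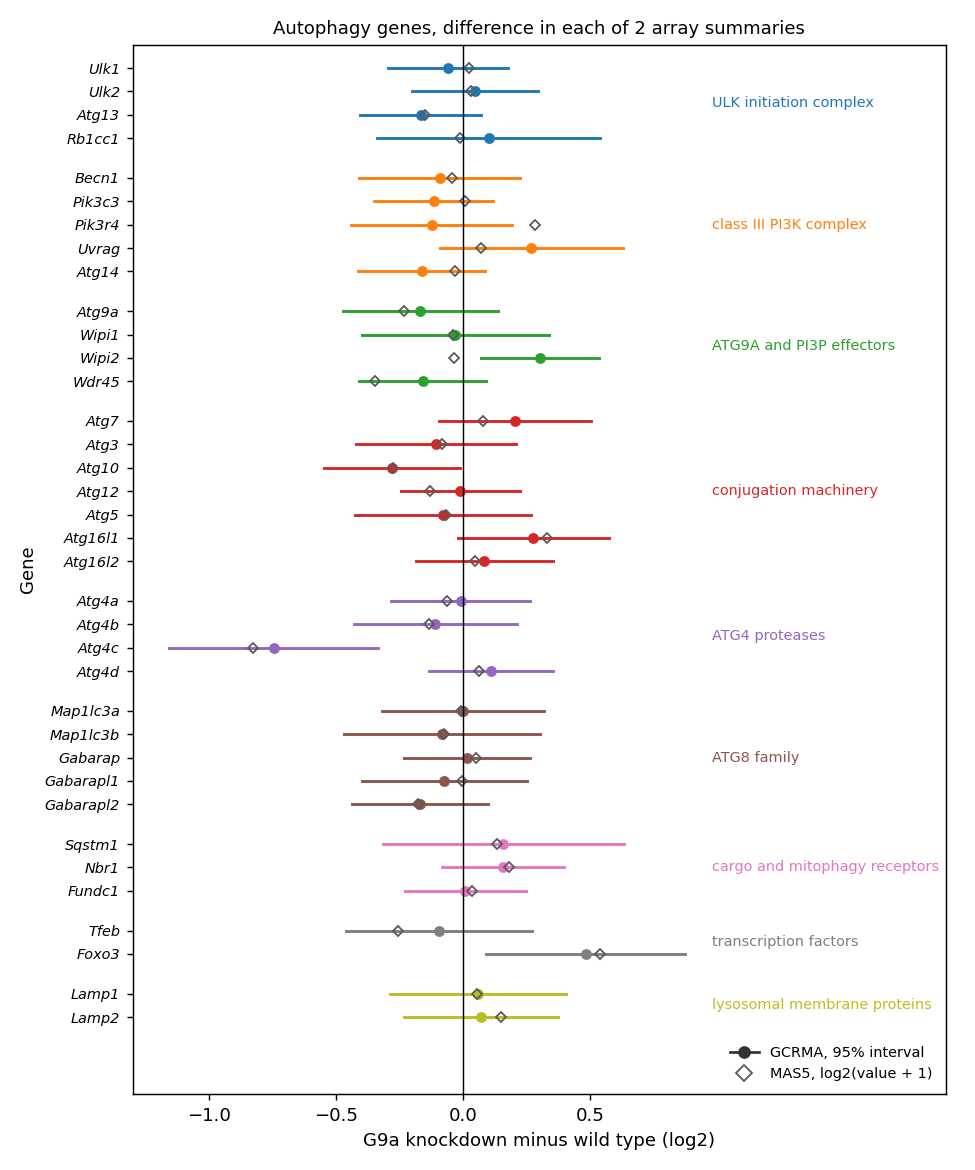
Difference between G9a knockdown and wild type (x axis, log2) for the 36 measured autophagy genes (y axis), grouped and coloured by role. Filled points with lines are GCRMA differences with 95% intervals (n = 3 arrays per group) and open diamonds are MAS5 differences on log2(value + 1); Atg4c lies farthest left at −0.74 and Foxo3 farthest right at 0.48.

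Atg4c, one of the cysteine proteases that trim ATG8 proteins and release them from lipid, had the largest difference. It was also among the dimmest members, and only Atg10 and Atg16l2 had lower GCRMA means in each group. It read 5.74, 5.75 and 5.63 in knockdown arrays 1 to 3, against 6.26, 6.27 and 6.82 in wild type arrays 1 to 3. Every knockdown array lay below every wild type array, and the knockdown arrays were close together while wild type array 3 stood above the other two. The difference was −0.74 (SE 0.16, 95% interval −1.16 to −0.33), or 1.68-fold lower, and it did not pass the limma test (adjusted p = 0.210). In MAS5 the intensities were 137, 127 and 107 in the knockdown, against 176, 193 and 308 in wild type, again without overlap, a difference of −0.83 (limma adjusted p = 0.442). Without replicate 3 the GCRMA difference was −0.52, and without replicate 1 it was −0.85. Atg4c had 1 tested probe set, so no other probe set checks it.

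The other ATG4 proteases had differences near 0. Atg4a and Atg4b differed by −0.0090 (−0.28 to 0.26) and −0.11 (−0.43 to 0.21), and Atg4d by 0.11 (−0.14 to 0.36). In Atg4d the groups did not overlap: it read 10.18, 10.01 and 9.99 in the knockdown, against 9.97, 9.96 and 9.91 in wild type, with most of the difference in knockdown array 1. Other tested probe sets of Atg4a, Atg4b and Atg4d had the opposite sign to the brightest one (0.20, 0.23 and −0.025). For Atg4b, the main protease for LC3 in mouse tissues, the brightest and the second probe set thus gave differences of −0.11 and 0.23.

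Foxo3, a forkhead transcription factor that activates autophagy genes and is active in erythroid precursors, had the largest positive difference. It read 10.68, 10.93 and 11.23 in knockdown arrays 1 to 3, against 10.08, 10.84 and 10.47 in wild type arrays 1 to 3. Each knockdown array was above the wild type array of its own number, by 0.60, 0.085 and 0.77, but knockdown array 1 lay below wild type array 2, so the groups overlapped. The difference was 0.48 (SE 0.16, 95% interval 0.092 to 0.87), or 1.40-fold, with a limma adjusted p of 0.309. At its second probe set, 1434832_at, Foxo3 read 10.75, 10.87 and 11.14 in the knockdown, against 10.23, 10.60 and 10.39 in wild type. There the groups did not overlap, and the difference was 0.51 (0.20 to 0.83, limma adjusted p = 0.233). The MAS5 intensities of the brightest probe set were 2932, 3477 and 4356 in the knockdown, against 2136, 2810 and 2412 in wild type, also without overlap (difference 0.54, limma adjusted p = 0.427). The probe sets and summaries share the same 6 arrays and are not further replicates. Tfeb, the factor that drives many lysosomal and autophagy genes, differed by −0.096 (−0.46 to 0.27), with wild type array 1 at 7.67 and the other 5 arrays between 7.20 and 7.36.

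**Figure D2:**
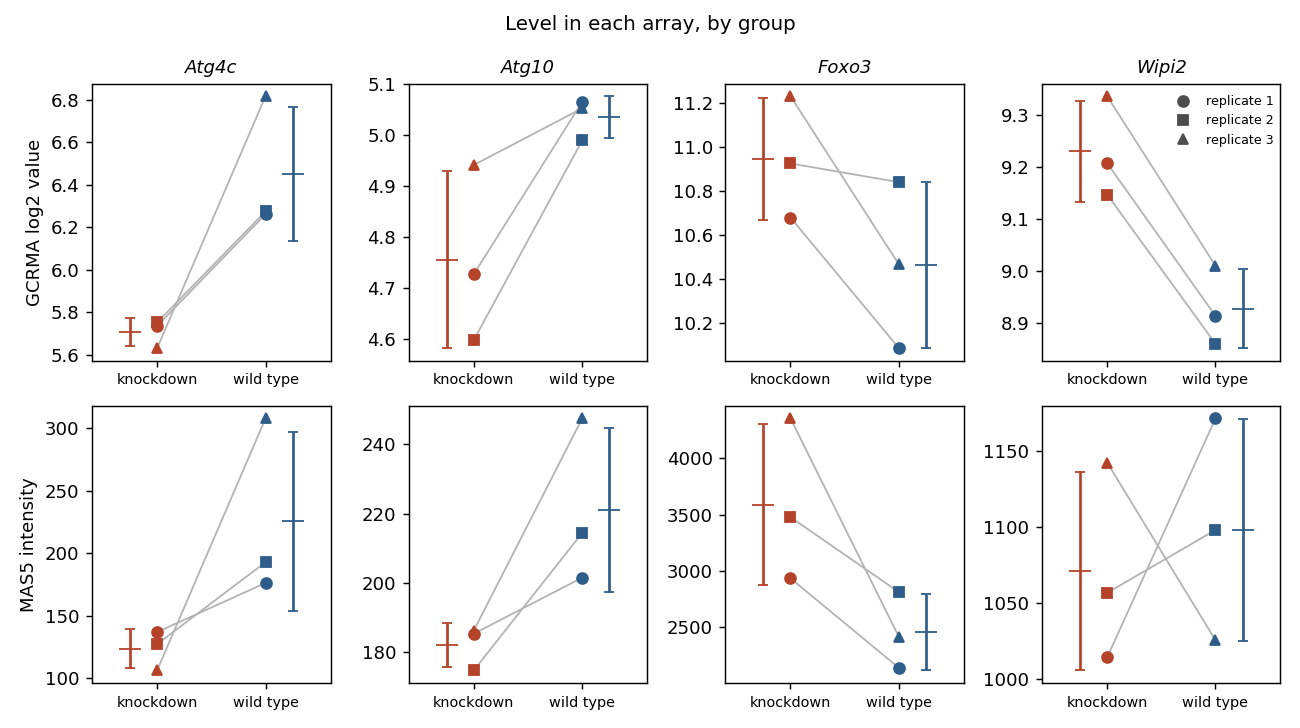
Level of Atg4c, Atg10, Foxo3 and Wipi2 (columns) in each array, as GCRMA log2 values (upper row) and MAS5 intensities (lower row), with knockdown left of wild type and lines joining arrays of the same replicate number. Bars beside the points are mean ± SD (n = 3 per group), and the y axes do not start at 0. Wipi2 is separated in GCRMA and not in MAS5, where knockdown array 1 reads 1014 and wild type array 1 reads 1171.

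In the conjugation machinery, Atg10, the E2-like enzyme that joins Atg12 to Atg5, was the dimmest measured member and read 4.73, 4.60 and 4.94 in knockdown arrays, against 5.06, 4.99 and 5.05 in wild type arrays. The groups did not overlap, and the wild type arrays lay closer together than the knockdown arrays. The difference was −0.28 (−0.55 to −0.013, limma adjusted p = 0.355), and it was −0.27 in MAS5. Atg16l1, which with the Atg12–Atg5 conjugate directs lipidation to the membrane, read 8.11, 8.29 and 7.85 in knockdown arrays, against 7.78, 7.84 and 7.80 in wild type arrays. All 3 knockdown arrays were above all wild type arrays, and knockdown array 3 was above its own partner by only 0.046. Its difference was 0.28 (−0.020 to 0.57, limma adjusted p = 0.389), against 0.33 in MAS5, and its relative Atg16l2 differed by 0.084 (−0.19 to 0.35).

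The remaining enzymes of conjugation were closer between groups. Atg7, the E1-like enzyme for both conjugation systems, differed by 0.20 (−0.095 to 0.50), and by 0.18 at its second probe set. Atg3, the E2-like enzyme for ATG8 lipidation, differed by −0.11 (−0.42 to 0.21). Atg12 and Atg5 differed by −0.010 (−0.24 to 0.22) and −0.079 (−0.42 to 0.27), and Atg12 had the smallest spread, from 9.49 to 9.58 over the 6 arrays.

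The ATG8 family was measured at all 5 listed genes and differed by at most 0.17 in size. Map1lc3b (LC3B) read 13.13, 13.03 and 13.57 in knockdown arrays, against 13.32, 13.40 and 13.27 in wild type arrays. Knockdown arrays held both the lowest and the highest values, and the difference was −0.082 (−0.47 to 0.30). Its other tested probe sets differed by −0.076 and 0.048. Map1lc3a (LC3A) and Gabarap differed by 0.00076 (−0.32 to 0.32) and 0.016 (−0.23 to 0.27), and Gabarapl1 and Gabarapl2 by −0.073 (−0.40 to 0.25) and −0.17 (−0.44 to 0.097).

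Among genes that act where PI3P is made or read, Wipi2, the PI3P-binding protein that recruits Atg16l1, read 9.21, 9.15 and 9.34 in knockdown arrays, against 8.91, 8.86 and 9.01 in wild type arrays. The groups did not overlap, and the 3 pairs of the same number differed by 0.29, 0.29 and 0.33. The difference was 0.30 (0.069 to 0.53, limma adjusted p = 0.295). It was −0.036 in MAS5, and −0.20 (−0.56 to 0.16) at the second GCRMA probe set, 1428882_at, so its sign depended on the summary and on the probe set. Wipi1 read 7.41, 7.46 and 7.49 in knockdown arrays, against 7.48, 7.80 and 7.19 in wild type arrays. The knockdown values lay inside the wild type range, with a difference of −0.031 (−0.40 to 0.34), and its other 2 tested probe sets differed by 0.14 and 0.16. Wdr45, another PI3P-binding protein, differed by −0.16 (−0.41 to 0.090) and by −0.35 in MAS5, and Atg9a, the membrane protein of early autophagic vesicles, by −0.17 (−0.47 to 0.14).

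The class III PI3K complex had negative GCRMA differences in 4 of its 5 genes and negative MAS5 differences in 2, where 48.9% of all genes had a positive GCRMA difference. Every GCRMA interval of the complex included 0, and Becn1 and Pik3r4 changed sign when 1 replicate number was left out (0.048 without replicate 2 and 0.015 without replicate 1). The catalytic subunit Pik3c3 (VPS34) differed by −0.12 (−0.35 to 0.12) and Becn1 by −0.092 (−0.41 to 0.22), with −0.11 and −0.099 at the other tested Becn1 probe sets. Pik3r4 (VPS15) differed by −0.12 in GCRMA and 0.28 in MAS5, and knockdown array 1, at 6.36, lay below the other 5 arrays, which read 6.67 to 6.76. Atg14 and Uvrag mark alternative forms of the complex, for autophagosome formation and for later steps, and they differed by −0.16 (−0.41 to 0.086) and 0.27 (−0.092 to 0.63). Uvrag read 9.09, 8.70 and 9.47 in knockdown arrays, against 9.02, 8.59 and 8.84 in wild type arrays. Each knockdown array was above its wild type partner, by 0.067, 0.11 and 0.63, and without replicate 3 the difference was 0.090.

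In the ULK complex, the kinase genes Ulk1 and Ulk2 differed by −0.059 (−0.29 to 0.18) and 0.049 (−0.20 to 0.30). The scaffold subunits Atg13 and Rb1cc1 (FIP200) differed by −0.17 (−0.41 to 0.072) and 0.10 (−0.34 to 0.54). Second probe sets gave 0.11 for Atg13 and 0.31 for Rb1cc1, the first of opposite sign.

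Receptors that link cargo to ATG8 proteins had differences of 0.16 (−0.31 to 0.63) for Sqstm1 (p62), 0.16 (−0.084 to 0.40) for Nbr1 and 0.0091 (−0.23 to 0.25) for the mitochondrial receptor Fundc1. Sqstm1 read 12.02, 12.44 and 12.52 in knockdown arrays, against 12.34, 12.26 and 11.91 in wild type arrays. The groups overlapped, and the difference was 0.40 without replicate 1 and −0.068 without replicate 3. Nbr1 was above its wild type partner in all 3 pairs, and its groups did not overlap in MAS5. Bnip3l shares 3 probe sets with its pseudogene Bnip3l-ps, and these cannot tell the transcripts apart. The brightest, 1416922_a_at, read 12.46, 12.51 and 12.34 in knockdown arrays, against 12.26, 12.57 and 12.54 in wild type arrays. Differences at the 3 probe sets were −0.017 (−0.31 to 0.28), −0.064 (−0.44 to 0.31) and 0.011 (−0.23 to 0.25), with overlapping groups at each.

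The lysosomal membrane glycoproteins Lamp1 and Lamp2 differed by 0.060 (−0.29 to 0.41) and 0.071 (−0.23 to 0.38). Lamp1 read 13.10, 12.55 and 13.32 in knockdown arrays, against 13.01, 12.80 and 13.00 in wild type arrays, and Lamp2 read 13.18, 12.87 and 13.51 in knockdown arrays, against 13.02, 13.05 and 13.28 in wild type arrays. In both genes knockdown array 2 was the lowest and knockdown array 3 the highest of the 6. In wild type too, array 2 was the lowest for Lamp1 and array 3 the highest for Lamp2.

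**Figure D3:**
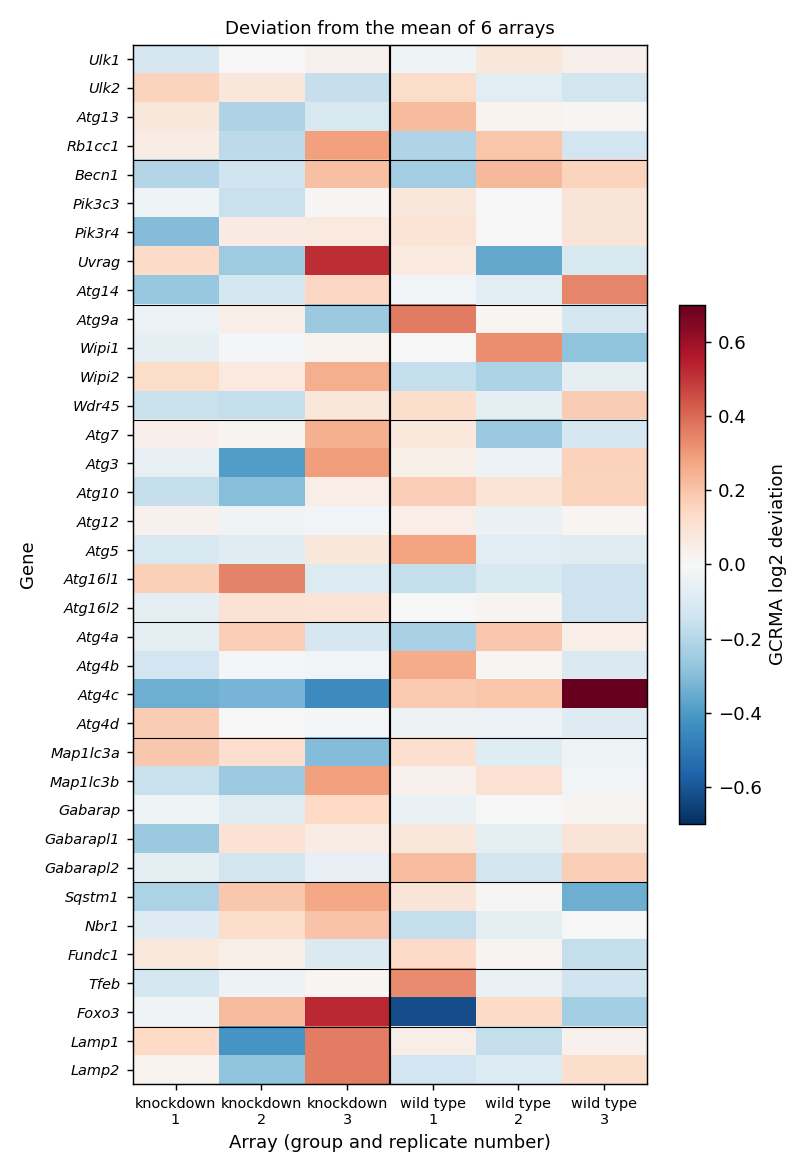
Deviation of each of the 36 genes (rows, ordered by role) from its own mean over the 6 arrays, in GCRMA log2 units, with knockdown arrays left of wild type arrays. Atg4c and Wipi2 are the clearest rows that split by group, and Map1lc3b, Lamp1, Lamp2 and Atg3 are low in knockdown array 2 and high in knockdown array 3.

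That order of arrays was shared by 5 members, Atg3, Map1lc3b, Gabarap, Lamp1 and Lamp2, or 13.9% of the members, against 2.78% of all genes. For Atg3 the wild type arrays had the same order, at 11.68, 11.59 and 11.79. For Map1lc3b wild type array 2 was instead the highest and array 3 the lowest wild type array, at 13.32, 13.40 and 13.27. For Gabarap wild type array 1 was the lowest wild type array, at 13.22, 13.27 and 13.29. The knockdown order was seen at 9 of the 10 tested probe sets of these genes, but the 10 include the 5 brightest, by which the genes were picked. Only Map1lc3b and Lamp2 had other tested probe sets. The order was seen at 3 of 3 tested probe sets for Map1lc3b and at 3 of 4 for Lamp2, each count including the brightest. In MAS5 it was seen at 3 of the 5 brightest probe sets, from the same arrays. The range over the 6 arrays was 0.77 for Lamp1, 0.69 for Atg3, 0.64 for Lamp2, 0.54 for Map1lc3b and 0.23 for Gabarap. Knockdown array 3 was the highest array for 12 of 36 members, against 15.9% of all genes, and knockdown array 2 the lowest for 9, against 19.6%. The pattern was chosen after the values were seen and was not tested.

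Averaged over both groups, the members' levels spanned a median of 0.22 between replicate numbers, against 0.29 over all genes. The widest spans were 0.51 for Uvrag, 0.50 for Foxo3, 0.48 for Lamp1, 0.44 for Atg3, 0.43 for Lamp2 and 0.41 for Becn1. By the limma F test on replicate number, 0 of 36 passed the adjusted threshold, against 1.97% of all genes and 2.25% of all probe sets, and 1 (Atg14) had an unadjusted p under 0.05, against 24.4% of all genes. Atg14 averaged 6.82, 6.86 and 7.21 over both groups in numbers 1, 2 and 3. The median range over the 6 arrays was 0.47 for the members and 0.53 for all genes.

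Agreement between probe sets and between summaries was incomplete. Of 28 other tested probe sets, from 21 members, 15 had the sign of the brightest probe set and 13 the opposite sign. The same share over all genes was not counted, so this split cannot be called particular to the members. None of the 28 passed the adjusted limma test, against 0.0117% of all probe sets. At an unadjusted p under 0.05 there was 1 (Foxo3), against 13.7% of all probe sets. In MAS5, 30 of 36 members had the GCRMA sign (83.3%), against 80.7% of all genes. The MAS5 unadjusted p was under 0.05 for 3 members, Atg4c, Foxo3 and Wdr45, against 10.1% of all genes. Groups did not overlap in GCRMA for 5 members (13.9%, against 12.8% of all genes). Knockdown values were the higher ones for Wipi2, Atg16l1 and Atg4d (background 5.5%) and the lower ones for Atg10 and Atg4c (background 7.34%).

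**Figure D4:**
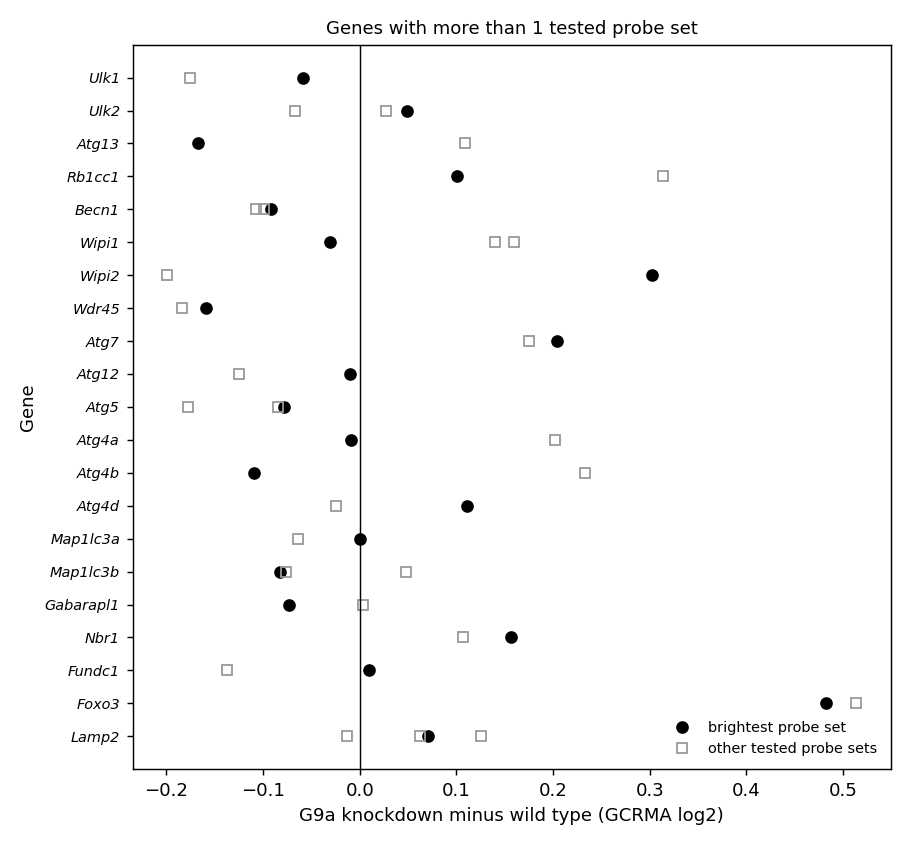
Difference between knockdown and wild type (x axis, GCRMA log2) at every tested probe set of the 21 genes (y axis) with more than 1. Filled circles are the brightest probe set and open squares the others; the 2 Foxo3 probe sets lie together at 0.48 and 0.51, and those of Wipi2 lie on opposite sides of 0 at 0.30 and −0.20.

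Genes around the listed members were read from 5 further lists with 104 genes, of which 95 were tested. None passed the adjusted limma test, and 11 had an unadjusted p under 0.05 (6 higher, 5 lower). That is 11.6%, against 14.2% of all genes (6.56% higher and 7.63% lower). This share too was no higher than the background, and the gap was not tested. The median difference over the 95 was 0.011. Of 20 other autophagosome genes, those with the lowest p were the SNARE genes Ykt6, Vamp8 and Snap29, which act in fusion of the autophagosome with the lysosome, at −0.53 (−0.77 to −0.28), −0.32 (−0.59 to −0.056) and 0.30 (−0.0035 to 0.60). Ykt6 averaged 9.60 ± 0.14 in the knockdown and 10.12 ± 0.13 in wild type (SD, n = 3 each), without overlap, and its limma adjusted p was 0.184. Of 18 tested receptor and mitophagy genes, Retreg1, a receptor for the endoplasmic reticulum, differed by −0.65 (−1.25 to −0.054), and by −1.01 without replicate 3 and −0.44 without replicate 2. Ccpg1 differed by −0.25 and Trp53inp2 by −0.21 (−0.46 to 0.033).

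The 5 other transcription factors listed for autophagy genes had positive differences (48.9% of all genes did), with a median of 0.33 and a smallest limma adjusted p of 0.271, but that of Foxo1 was only 0.0062. Mitf, a relative of Tfeb, averaged 7.69 ± 0.063 in the knockdown and 7.24 ± 0.25 in wild type, a difference of 0.44 (0.14 to 0.75) without overlap. Foxo4 differed by 0.38 (0.054 to 0.71) and Tfe3 by 0.19 (−0.072 to 0.45). Of 24 tested mTORC1 and AMPK genes, the folliculin partners Fnip2 and Fnip1 differed by 0.37 (0.059 to 0.68) and 0.35 (−0.0082 to 0.70), and Ddit4, an inhibitor of mTORC1, by 0.38 (−0.0012 to 0.77). Without replicate 1 Ddit4 differed by 0.19, and without replicate 3 Fnip1 differed by 0.22. Of 28 tested lysosome genes, 5 had an unadjusted p under 0.05, or 17.9%, against 14.2% of all genes. The proton pump subunits Atp6v0b and Atp6v0a1 differed in opposite directions, by 0.36 (0.096 to 0.63) and −0.37 (−0.64 to −0.099), and the lysosomal galactosidase Gla by −0.32 (−0.59 to −0.049).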

How the data were processed

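RNA from G9a knockdown and wild type MEL cells was hybridized to 3 Affymetrix mouse arrays per group, and each array was deposited in 2 summaries, per the labels. The 12 columns are therefore 6 arrays. The deposited MAS5 columns hold linear intensity with a 2% trimmed mean of 500 in every array. The deposited GCRMA columns hold log2 values. Further steps upstream: not given in the sources used here.

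Of 45101 probe sets, 64 controls were left out. Names came from the platform annotation (34958 probe sets with 1 gene, 932 with several, 9211 with none), and gene IDs were looked up in a RefSeq table of GRCm38.p6. The 17028 probe sets above log2 4 in at least 3 arrays were tested with limma 3.58.1 in R 4.3.3 (group and replicate number as terms, Benjamini-Hochberg over all of them). MAS5 was tested as log2(value + 1) in the same way. Arrays of the same number deviated together from their groups (correlation 0.72, 0.57 and 0.37, against −0.59 to 0.17 between different numbers). Deviations sum to 0 within a group, so the correlations between different numbers are not independent of those within a number. The labels number the replicates but do not say that arrays of the same number are paired. The fit was tested on simulated data.

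The members, lists and tests were chosen with earlier results of these data known. All members are named, and of each other list the 3 genes with the lowest p, as 0 passed the threshold. The number of arrays limits the precision. Alternatives were no block, MAS5, other filters, quantile normalization, a trended prior, other probe sets and leaving out each replicate number.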

Additional observations from a re-analysis of the deposited data

How the results depend on the processing

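None of the members tested (36, or 34 with the filter at log2 6, which leaves out Atg10 and Atg16l2) and none of the other pathway genes tested passed the adjusted limma threshold as reported or under the 11 alternatives, and none of the members did so by replicate number (10 alternatives). The members with an unadjusted p under 0.05 numbered 4 as reported (14.2% of all genes) and 2 with no replicate block (5.98% of all genes). They numbered 10 with no filter on dim probe sets, and 1 to 3 when a replicate number was left out. The share over all genes was not counted in those last settings, so these counts have no background and say nothing particular to the members. Over all probe sets, 2 passed as reported, 1 with no replicate block, 0 in MAS5 with either pseudocount, 0 with no filter, 8 with the filter at log2 6, 6 with a trended robust prior, and 0 to 1 when a number was left out. The replicate block changed no call among the members. Causes of these shifts were not tested. Leaving out 1 array of a pair gives the same difference as leaving out both.

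Signs changed in these cases and not otherwise among the members. In MAS5 (pseudocounts 1 and 16) the differences were 0.022 and 0.022 for Ulk1, −0.010 and −0.011 for Rb1cc1, 0.0085 and 0.0085 for Pik3c3, 0.28 and 0.27 for Pik3r4, −0.036 and −0.035 for Wipi2, and −0.0087 and −0.0086 for Map1lc3a. Quantile normalization gave 0.0056 for Atg12 and 0.0064 for Atg4a. Other probe sets gave −0.067 for Ulk2, 0.11 for Atg13, 0.14 and 0.16 for Wipi1, −0.20 for Wipi2, 0.20 for Atg4a, 0.23 for Atg4b, −0.025 for Atg4d, −0.064 for Map1lc3a, 0.048 for Map1lc3b, 0.0034 for Gabarapl1, −0.14 for Fundc1 and −0.013 for Lamp2. With a replicate number left out, 19 members spanned 0: Ulk2 −0.0052 to 0.091, Rb1cc1 −0.058 to 0.34, Becn1 −0.17 to 0.048, Pik3r4 −0.21 to 0.015, Wipi1 −0.20 to 0.12, Atg3 −0.22 to 0.017, Atg12 −0.026 to 0.0026, Atg5 −0.20 to 0.079, Atg4a −0.092 to 0.069, Atg4b −0.20 to 0.032, Map1lc3a −0.100 to 0.14, Map1lc3b −0.27 to 0.058, Gabarap −0.036 to 0.068, Gabarapl1 −0.19 to 0.063, Sqstm1 −0.068 to 0.40, Fundc1 −0.018 to 0.042, Tfeb −0.22 to 0.083, Lamp1 −0.075 to 0.21, Lamp2 −0.012 to 0.20. The other 17 kept their sign.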
